A study of Mus musculus with 6 samples.

Results

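Genes of the epithelial cell surface and of apical-basal polarity were compared between T1 and T2, a pair of tumor cell populations from the 4T1 mouse mammary cancer model. The 9 genes, Epcam, Muc1, Prom2, Crb3, Pard6b, Llgl2, Rab25, Mal2 and Ap1m2, were chosen by name for these roles out of 24129 gene names in the table. This choice was made with earlier results of these data known. The measurement was poly(A) RNA sequencing of 3 T1 and 3 T2 samples, given as read counts normalized for sequencing depth. T1 (4T1A in the labels) was the low GFP, adherent population with an epithelial shape, and T2 (4T1NA) was the high GFP population of round, loosely attached cells. Both came from 4T1GFP, a GFP-marked line of BALB/c origin, grown as a mammary tumor in BALB/c mice and kept afterwards in the same DMEM/F-12 medium with serum. The tumor had been sorted into GFP+ and GFP- cells, GFP+ cells overgrew a culture of GFP- CD140a+ fibroblasts, and this mixed culture was sorted again on GFP into T1 and T2. Each population is therefore a culture expanded after a sort, the GFP level was part of its definition, and according to the labels T2 was passaged without trypsin, like a suspension culture. EpCAM, the product of Epcam, was itself named with GFP as a gate in the sort of the dissociated tumor, while the later sort of the mixed culture was described by GFP alone. The series calls its replicates independent and the study's methods speak of biological replicates in general, without saying how the RNA samples were grown. The p-values measure the spread between these samples.

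Epithelial cells keep an apical surface apart from their basal and lateral surfaces. The Crumbs complex (with CRB3) and the Par complex (with PAR6 proteins and atypical protein kinase C) mark the apical side, the Scribble complex (with LGL proteins) marks the basolateral side, and the complexes hold each other in place. Transport proteins such as RAB25, MAL2 and the epithelial AP-1 adaptor carry membrane proteins to the correct side, and EpCAM, mucins and prominins sit in the membrane itself. In breast carcinoma cells this set is known as part of the epithelial state that cells leave in an epithelial-mesenchymal transition.

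Most of the members' promoters that could be searched shared a sequence feature. The letters CAGGTG, the E-box bound by the repressors ZEB and Snail, were searched on both strands, so the other strand reads CACCTG, in the 250 bases before each gene's start (RefSeq, GRCm38.p6). Promoters of 7 of the 9 members were in the RefSeq set used here, without Llgl2 and Mal2. The motif was present in 6 of these 7, at least 2 times in each, and Prom2 had no match. Among all 27025 mouse promoters 17.1% held a match, and among the 8840 promoters of the genes tested below 14.6% held at least 1 match and 1.72% at least 2. Of 10 promoters of close relatives of the members, 1 held a match, that of Prom1. The sequences of Epcam, Crb3, Rab25 and Pard6b show the matches, and that of Prom2 shows the promoter without one. Each is given 5' to 3' on the gene's own strand, ending just before the RefSeq start, with the E-box letters in capitals. This start can differ from the GENCODE gene spans given further below. The Crb3 window lies inside its GENCODE span (chr17:57059105-57065918), and the windows of Rab25, Prom2 and Ap1m2 run partly into theirs.

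Epcam, chr17:87635729-87635978, plus strand: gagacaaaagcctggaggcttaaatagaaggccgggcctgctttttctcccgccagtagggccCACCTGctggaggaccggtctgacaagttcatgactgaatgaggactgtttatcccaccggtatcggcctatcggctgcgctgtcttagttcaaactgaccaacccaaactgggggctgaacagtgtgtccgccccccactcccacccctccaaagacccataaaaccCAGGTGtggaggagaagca
Crb3, chr17:57061951-57062200, plus strand: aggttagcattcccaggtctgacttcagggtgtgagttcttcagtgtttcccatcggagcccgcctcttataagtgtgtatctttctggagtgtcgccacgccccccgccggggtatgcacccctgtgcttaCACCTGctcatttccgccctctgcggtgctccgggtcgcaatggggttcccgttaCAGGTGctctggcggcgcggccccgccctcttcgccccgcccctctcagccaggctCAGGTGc
Rab25, chr3:88548280-88548529, minus strand: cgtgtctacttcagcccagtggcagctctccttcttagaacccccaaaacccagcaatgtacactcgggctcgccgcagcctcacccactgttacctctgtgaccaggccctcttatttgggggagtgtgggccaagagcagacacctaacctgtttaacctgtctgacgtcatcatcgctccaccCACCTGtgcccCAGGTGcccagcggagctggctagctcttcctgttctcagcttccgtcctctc
Pard6b, chr2:168080754-168081003, plus strand: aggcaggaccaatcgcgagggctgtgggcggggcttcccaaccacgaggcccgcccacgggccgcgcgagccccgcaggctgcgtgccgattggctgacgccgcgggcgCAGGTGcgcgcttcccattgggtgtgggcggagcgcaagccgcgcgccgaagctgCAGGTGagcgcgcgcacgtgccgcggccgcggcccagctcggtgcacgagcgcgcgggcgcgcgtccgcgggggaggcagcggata
Prom2, chr2:127541418-127541667, minus strand: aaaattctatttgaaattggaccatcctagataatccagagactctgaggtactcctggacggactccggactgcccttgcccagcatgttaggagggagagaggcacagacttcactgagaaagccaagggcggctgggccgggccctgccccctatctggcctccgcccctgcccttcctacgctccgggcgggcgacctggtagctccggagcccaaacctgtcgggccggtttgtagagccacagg

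In Epcam the matches began 187 and 19 bases before the start, in Crb3 118, 63 and 7 bases before it, in Rab25 64 and 53 bases, and in Pard6b 141 and 86 bases. Ap1m2 held 4 matches and Muc1 held 2, and both were too low for the test below. Prom2, with no match, was called higher in T1 there, so presence of the motif did not follow the calls among these members. The GC box GGGCGG was present in 5 of the 7 promoters, against 61.8% of the promoters of genes tested. The Grainyhead motif AACNNGTT was present in 2 of 7 (Muc1 and Rab25; 2.81% of tested), its full form AACCGGTT, which AACNNGTT includes, in none (0.226%), the AP-1 motif TGANTCA in none (6.87% of all promoters, tested or not), and TATAAA in Muc1 only (5.71%). Among genes higher in T1 by the test below, members left out, 26.5% of 298 promoters held CAGGTG, among genes lower in T1 17.4% of 368, and among the other genes tested 14.1% of 8170. These are counts of letters in a fixed window and do not show that a factor was bound. Any part of the motif in the differences between T1 and T2 was not tested.

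The libraries held 18133227 to 20839686 reads on genes, and 1 read was worth 0.928 to 1.06 normalized counts. Genes averaging 10 or more normalized counts over the 6 libraries were tested by limma on log2(normalized count + 1), and fold changes are on that scale. A gene was called at an adjusted p under 0.01 with a log2 fold change beyond 2 in either direction, the filters used in the study. Of 11514 genes tested, 480 (4.17%) were called higher in T1 and 484 (4.2%) lower, and the median log2 fold change was -0.0055. Of the 9 members, 6 passed the filter on low counts, 5 of these were called higher in T1 (Epcam, Prom2, Crb3, Pard6b and Mal2), and none was called lower. Llgl2 passed the adjusted p but not the fold filter. With the adjusted p alone, 25.1% of all genes were higher in T1 and 24.4% lower, genes past the fold filter included. In all 6 of these genes every T1 sample lay above every T2 sample, which held for 34.2% of all genes tested. Crb3 and Mal2 passed the filter on low counts only through T1, so their calls add no independent count. Rab25 and Muc1 were under the filter, and Ap1m2 was listed at 0. RNA from pooled cells cannot tell fewer cells with a transcript apart from less transcript in each cell.

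**Figure D1:**
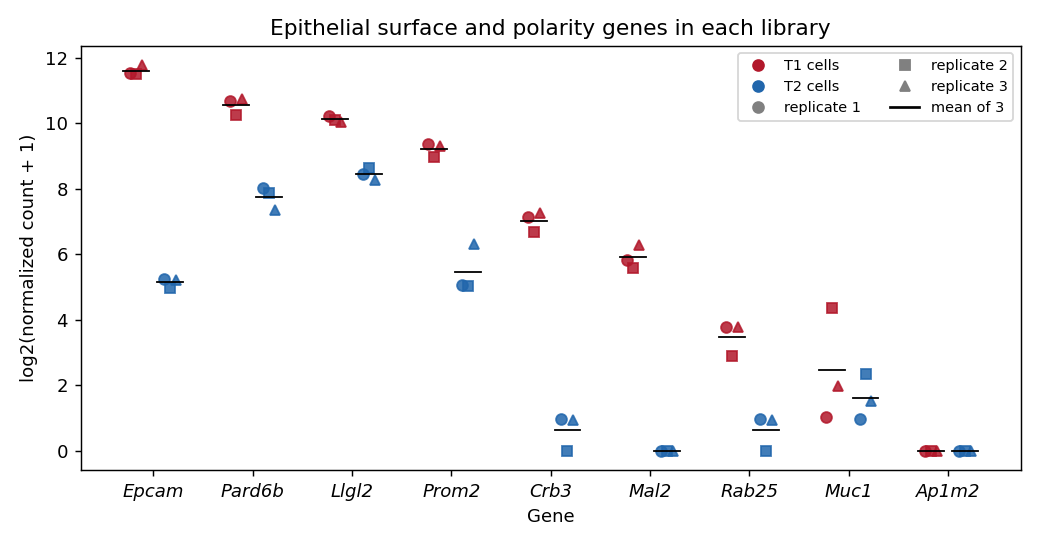
Level of each of the 9 genes in each library, on the log2(normalized count + 1) scale, for T1 (red) and T2 (blue), with the replicate shown by the symbol and the mean of 3 by a line. T1 lies above T2 without overlap in Epcam, Pard6b, Llgl2, Prom2, Crb3, Mal2 and Rab25, the groups overlap in Muc1, and Ap1m2 is at 0 in all 6 libraries.

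The cells of both groups carried keratin transcripts of a simple epithelium. Krt8 was at 22067 normalized counts in T1 and 19195 in T2 (log2 fold change 0.20, SE 0.083, adjusted p = 0.0534) and Krt18 at 23275 and 21658 (0.10, SE 0.098, adjusted p = 0.394). Cdh1, which encodes E-cadherin, the adhesion protein of epithelial junctions, was at 14748 in T1 and 465 in T2, a log2 fold change of 4.98 (SE 0.077, adjusted p = 7.63e-11). The 7 fibroblast markers summed to 20.1 to 40.0 normalized counts per T1 library and 0 to 0.979 per T2 library, with Col3a1, Lum, Pdgfrb and Thy1 at 0 in all 6. The 7 leukocyte markers summed to 0 to 6.51 in T1 and 12.3 to 19.5 in T2, with Cd3e, Tyrobp and Adgre1 at 0, and the 5 endothelial markers to at most 5.29 in any library, with Kdr at 0. A listed 0 in all 6 libraries may not mean absence, since Gapdh, described below, was listed almost the same way. The part of these low marker levels in the results below was not tested.

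Among the surface proteins, Epcam differed most. Epcam (ENSMUSG00000045394.9, chr17:87635979-87651129, plus strand, a protein-coding gene in GRCm38) encodes the epithelial cell adhesion molecule, a membrane glycoprotein of most carcinomas. Its normalized counts were 2989, 2931 and 3502 in T1 replicates 1 to 3 and 37.2, 30.7 and 36.2 in T2 replicates 1 to 3. The T1 values lay close together, the T2 values likewise, and the gap between the groups was far wider than either spread. The means were 3141 ± 314 (SD, n = 3) and 34.7 ± 3.49 (SD, n = 3), a ratio of 90.5. The part of the EpCAM gate in this difference was not tested. The log2 fold change was 6.46 (SE 0.13, 95% confidence interval 6.17 to 6.75, adjusted p = 4.04e-10).

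Prom2 (chr2:127526473-127541467, minus strand) encodes prominin-2, a glycoprotein of membrane protrusions in epithelial cells. It was at 654, 501 and 630 normalized counts in T1 and at 32.3, 31.7 and 78.9 in T2. The T2 replicate 3 value was more than double the other T2 values, yet well under each T1 value. The means were 595 ± 82.2 (SD, n = 3) and 47.6 ± 27.0 (SD, n = 3), with a log2 fold change of 3.74 (SE 0.31, adjusted p = 3.21e-06), which was 4.16 without T2 replicate 3. The other prominin, Prom1, a marker of stem-like cells in many tissues, had 8, 1 and 2 reads in T1 and none in T2.

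Muc1 (chr3:89229057-89233381, plus strand) encodes a mucin of the apical surface of glandular epithelium. It had 1, 21 and 3 reads in T1 and 1, 4 and 2 in T2. Only T1 replicate 2 stood above T2, and the groups overlapped. The ratio of pooled normalized reads was 3.61, with a 95% counting interval of 1.52 to 9.88 that covers counting error only. With no filter on low counts limma gave a log2 fold change of 0.84 (SE 0.75, adjusted p = 0.400) and edgeR on the reads, added after the data were seen, 1.78 (adjusted p = 0.123). Of the other transmembrane mucins searched, Muc4, Muc13, Muc15 and Muc20 were in the table, each at 0 reads in all 6 libraries.

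Of the polarity proteins, Crb3 showed the widest difference. Crb3 (chr17:57059105-57065918, plus strand) encodes the short Crumbs protein of epithelial apical membranes and tight junctions. It was at 139.7, 101.4 and 154.2 normalized counts in T1, and T2 had 1, 0 and 1 reads. All T2 values were at or near 0 and T1 values were moderate, with replicate 2 the lowest. The means were 132 ± 27.3 (SD, n = 3) and 0.636 ± 0.551 (SD, n = 3). The pooled ratio was 202 with a counting interval of 55.4 to 1670, and the log2 fold change was 6.39 (SE 0.39, adjusted p = 3.55e-07). Its exons overlap those of Dennd1c on the opposite strand by 14 bases (0.895% of the exonic length), and the library kit does not mark strand. The other Crumbs genes were almost without reads, Crb1 at 0 and Crb2 at 1 read in 1 T2 library.

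Pard6b (chr2:168081004-168101203, plus strand) encodes a PAR6 scaffold that links CDC42 and PAR3 to atypical protein kinase C. It was at 1658, 1231 and 1697 normalized counts in T1 and 260, 233 and 164 in T2. Each T1 value was several times each T2 value, and T1 replicate 2 was the lowest of its group. The means were 1529 ± 258 (SD, n = 3) and 219 ± 49.6 (SD, n = 3), a log2 fold change of 2.81 (SE 0.18, adjusted p = 5.75e-07) and a ratio of 6.97.

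The remaining PAR6 genes behaved otherwise. Pard6g was called lower in T1, with 2, 3 and 1 reads against 33, 26 and 37 in T2 (log2 fold change -3.48, SE 0.40, adjusted p = 3.33e-05). Pard6a was at 172 and 113 normalized counts, a log2 fold change of 0.60 (SE 0.16, adjusted p = 0.00667) that was not past the fold filter. Per kilobase of exon, Pard6b made up 80.4% ± 1.92 (SD, n = 3) of Pard6a plus Pard6b in T1 and 47.1% ± 4.45 in T2. T1 shares ran from 78.4 to 82.2% and T2 shares from 42.4 to 51.2%, so the groups did not overlap.

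Llgl2 (chr11:115824049-115855780, plus strand) encodes the epithelial LGL protein, which holds atypical protein kinase C off the basolateral side. It was at 1188, 1109 and 1051 normalized counts in T1 and 347, 400 and 305 in T2. The T2 cells kept a clear level, and the groups did not overlap. The means were 1116 ± 68.8 (SD, n = 3) and 351 ± 47.7 (SD, n = 3), and the log2 fold change of 1.67 (SE 0.12, interval 1.41 to 1.94, adjusted p = 1.13e-06) lay under the fold filter of 2. Its relative Llgl1 was at 1987 in T1 and 3061 in T2, in the other direction (log2 fold change -0.63, SE 0.078, adjusted p = 5.92e-05, not past the fold filter). Per kilobase of exon, Llgl2 was 36.1% ± 2.63 (SD, n = 3) of the LGL pair in T1 and 10.3% ± 1.18 in T2.

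**Figure D2:**
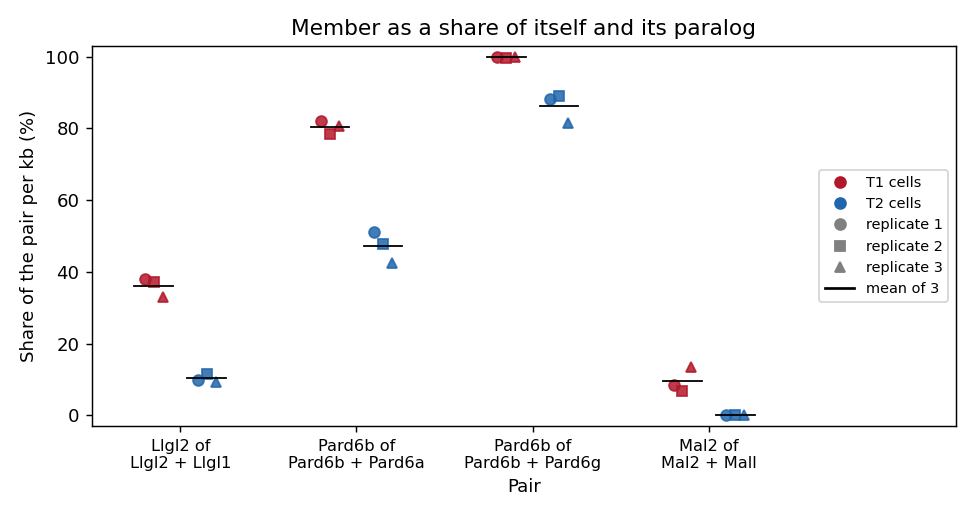
Share (%) that a gene takes of itself plus a relative, from normalized counts per kilobase of exon, in each library of T1 (red) and T2 (blue), with the mean of 3 as a line. The Pard6b share of Pard6a plus Pard6b is 78.4 to 82.2% in T1 and 42.4 to 51.2% in T2, and the Llgl2 share is 33.1 to 37.9% in T1 and 9.36 to 11.6% in T2.

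Among the transport proteins, Mal2 (chr15:54571192-54602847, plus strand) encodes a membrane-raft protein of transcytosis toward the apical surface. It was at 56.1, 47.4 and 77.1 normalized counts in T1, from 53, 51 and 79 reads, and at 0 in all 3 T2 libraries. The T1 mean was 60.2 ± 15.3 (SD, n = 3). T1 was at least 20.5-fold higher, taking 3 reads per T2 library as the most that a count of 0 allows, and the fitted log2 fold change of 5.91 (SE 0.40, adjusted p = 8.08e-07) depends on the pseudocount. The related raft genes Mal and Mall were called higher too. Mal was at 208, 199.95 and 242 normalized counts in T1 and 0 in T2, 74.0-fold higher by the same floor. Mall was at 417, 443 and 339 against 23.5, 8.19 and 40.8 (log2 fold change 4.24, SE 0.44, adjusted p = 1.65e-05).

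Rab25 (chr3:88542029-88548300, minus strand) encodes the epithelial RAB11-family GTPase of apical recycling endosomes. It had 12, 7 and 13 reads in T1 and 1, 0 and 1 in T2, too few for the filter, with every T1 library above every T2 library. The pooled ratio was 16.2 with a counting interval of 4.12 to 139. With no filter, limma gave 2.84 (SE 0.46, adjusted p = 0.000368) and edgeR on the reads 3.81 (adjusted p = 0.00113). The broadly expressed Rab11a and Rab11b were at 1255 and 1308 normalized counts in T1 and 1760 and 1645 in T2, with log2 fold changes of -0.48 (SE 0.092, adjusted p = 0.00104) and -0.33 (SE 0.076, adjusted p = 0.00333), neither past the fold filter.

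Ap1m2 (chr9:21294275-21312337, minus strand) encodes the epithelial medium subunit of the AP-1 clathrin adaptor, which sorts proteins to the basolateral membrane. It was listed at 0 in all 6 libraries. Gapdh, a gene that every cell uses, was also listed at 0 in 5 libraries and 1 read in the other. Nothing is therefore read from a listed 0 in all 6 libraries. The same limit holds for Crb1, Muc4, Muc13, Muc15, Muc20, Snai2 and the cell type markers at 0. The broadly expressed subunit Ap1m1 was at 1290 in T1 and 1743 in T2 (log2 fold change -0.44, SE 0.10, adjusted p = 0.00318, not past the fold filter).

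**Figure D3:**
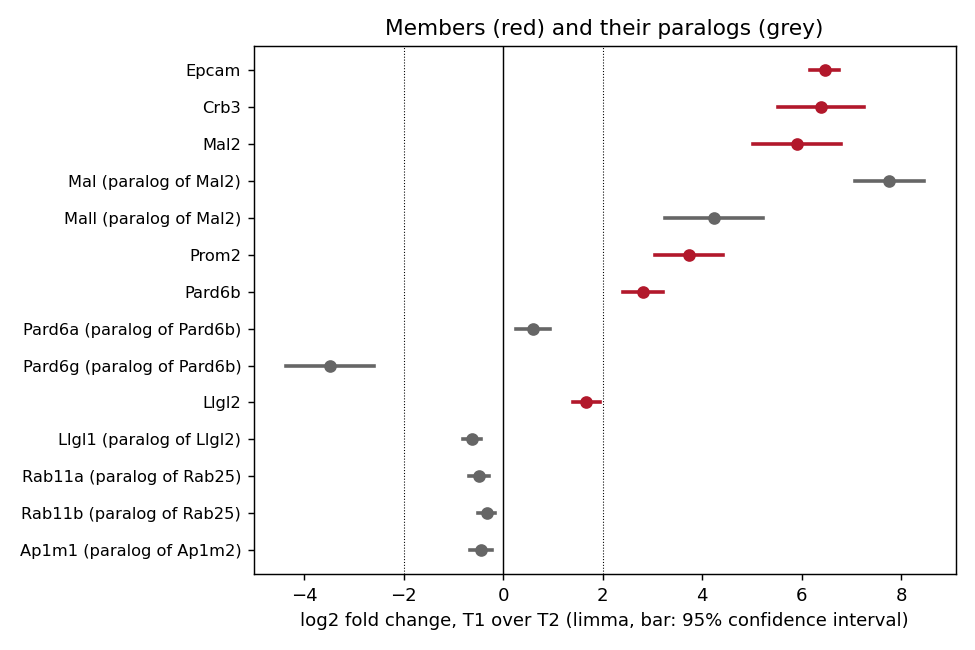
Log2 fold change of T1 over T2 by limma with its 95% confidence interval, for members that passed the filter on low counts (red) and relatives that passed it (grey), with dotted lines at the fold filter. Members lie between 1.67 (Llgl2) and 6.46 (Epcam), Mal and Mall lie at 4.24 or above, and Pard6g lies at -3.48.

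The difference between a member and a relative was itself compared between the groups in 12 pairs, as the log2 ratio per sample. For 3 samples against 3 an exact permutation test cannot go below p = 0.1, so no pair could pass 0.05. In 11 pairs the exact two-sided p was 0.1 (adjusted over the pairs 0.109), the smallest possible, and for Prom2 and Prom1 it was 0.2. The shift toward the member in T1 was 2.30 for Llgl2 over Llgl1, 2.21 for Pard6b over Pard6a, 6.29 for Pard6b over Pard6g, 3.33 for Rab25 over Rab11a and 3.17 for Rab25 over Rab11b. Both Rab25 shifts rest on 1, 0 and 1 Rab25 reads in T2, and that over Pard6g on 2, 3 and 1 Pard6g reads in T1. Their size therefore depends on the pseudocount. The shift of Mal2 over Mall was 1.67 but -0.28 with a pseudocount of 5, so its direction was not settled. The shift of Mal2 over Mal was -1.86, away from the member, with both at 0 in T2, so it rests on their T1 levels and the pseudocount. Pairs with Crb1, Crb2 or Ap1m2, at 0 or 1 read in all, carry little beside the other gene's difference.

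The order of the genes was read per kilobase of exon, as levels. In T1 the order was Epcam at 1431 normalized counts per kilobase, Pard6b at 450, Llgl2 at 230, Prom2 at 115, Crb3 at 84.2, Mal2 at 20.4, Rab25 at 6.35 and Muc1 at 3.34. Ap1m2, listed at 0, was left out of the order. The ranges of Prom2 and Crb3 overlapped, and so did those of Rab25 and Muc1. In T2 the order began with Llgl2 at 72.4 and Pard6b at 64.5, which overlapped, followed by Epcam at 15.8 and Prom2 at 9.18, which also overlapped. Muc1, Crb3, Rab25 and Mal2 were under 1 normalized count per kilobase in T2. Epcam thus led in T1, and Llgl2 and Pard6b led in T2.

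Within T1 the same sample was often the lowest, and whether the members varied together was not tested. Replicate 2 was the lowest T1 sample in 5 of the 6 genes that passed the filter, between 76.9% (Crb3) and 93.3% (Epcam) of the group mean, and it was the middle one for Llgl2. Over all genes T1 replicate 2 was the lowest in 29.3%. Rab25 was lowest there too, while Muc1 was highest there.

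The other genes of these pathways were described from 12 lists, which held 99 genes besides the members. The lists, like the members, were chosen with earlier results of these data known. Over all genes tested, 4.17% were called higher in T1 and 4.2% lower, which is the background for each list below. Of these 99 genes, 74 passed the filter, of which 13 were called higher in T1 and 2 lower, with a median log2 fold change of 0.17. Of these 13, 9 had a T2 mean under 10 normalized counts and passed the filter on low counts only through T1, and 1 of the 2 lower genes, Pard6g, passed only through T2, so these counts are no support on their own. In the Crumbs list, Crb3 was the called gene of 4 tested, and Lin7c, a scaffold with the highest level of those not past adjusted p of 0.05, was at -0.01 (SE 0.094). In the Par list, 1 gene was called higher (Pard6b) and 1 lower (Pard6g) of 7 tested. Prkci, an atypical protein kinase C, was at 4384 and 1460 normalized counts (log2 fold change 1.59, SE 0.083, adjusted p = 1.27e-07, under the fold filter), and Prkcz, the other one, was at 0.13 (SE 0.23). In the Scribble list of 7 tested, 1 was called lower, Dlg4, a scaffold best known from synapses, at -2.43 (SE 0.17, adjusted p = 9.40e-07). Scrib itself was at 0.14 (SE 0.098, adjusted p = 0.246). By the adjusted p alone, 5 of these 7 were lower in T1 and 1 was higher, and the list median was -0.63. In the Crumbs list 3 of 4 were higher in T1 and 0 lower by the adjusted p alone, Crb3 included. In the Par list 4 of 7 were higher and 1 lower, Pard6b included. Over all genes tested, 24.4% were lower and 25.1% higher by that measure.

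In the apical recycling list, 2 of 12 tested were called higher and none lower. These were the myosin motors Myo5b and Myo5c, which move RAB11-family vesicles along actin, and both passed the filter only through T1. Myo5b was at 324, 339 and 470 normalized counts in T1 and Myo5c at 144, 137 and 174, and both were at 0 in all T2 libraries. They were 129-fold and 51.7-fold higher by the floor of 3 reads per library. Rab11fip3, an effector of the same vesicles, was at -0.23 (SE 0.12, adjusted p = 0.107). By the adjusted p alone, 8 of the 12 were higher in T1 and 2 lower, against 25.1% and 24.4% of all genes tested. In the AP-1 list none of 7 tested was called, and by the adjusted p alone 2 were higher in T1 and 3 lower. Ap1g2, a large subunit, was at 620 and 171 normalized counts (log2 fold change 1.84, SE 0.15, adjusted p = 2.46e-06), short of the fold filter, and Ap1s3 was at -0.06 (SE 0.15).

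In the MAL list 3 of 4 tested were called higher, Mal2 included, of which Mal2 and Mal passed the filter only through T1. Of 12 tested genes of EpCAM partners and proteolysis 1 was called higher. It was St14, which encodes matriptase, a membrane protease that cleaves EpCAM, at 3866 and 141 normalized counts (log2 fold change 4.76, SE 0.10, adjusted p = 5.10e-10). Adam17, a protease that sheds the EpCAM ectodomain, was at -0.01 (SE 0.094, adjusted p = 0.907). Cd44 and Cd9, surface partners of EpCAM, had log2 fold changes of -1.13 (SE 0.11) and -1.13 (SE 0.084), under the fold filter. Cldn7, of the same list, went the other way, with 8, 7 and 34 reads in T1 and 2, 3 and 2 in T2. It was under the filter on low counts. By the adjusted p alone, 4 of the 12 tested were higher in T1 and 5 lower. Of 9 apical membrane linkers none was called, and Rdx, which encodes radixin, was at 0.06 (SE 0.077, adjusted p = 0.526). By the adjusted p alone, 3 of the 9 were higher in T1 and 3 lower, against 25.1% and 24.4% of all genes tested.

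Among 9 tested regulators of the epithelial state, 6 were called higher and none lower. Of the 6, Esrp1, Ovol1, Grhl1 and Ovol2 passed the filter only through T1. Esrp1, an epithelial splicing factor, was at 674, 697 and 687 normalized counts in T1 and had 1 read in all T2 libraries together, a pooled ratio of 2111 with a counting interval of 378 to 83422. Ovol1, a zinc finger repressor of mesenchymal genes, had a log2 fold change of 4.50 (SE 0.25, adjusted p = 2.09e-07). Grhl1, a Grainyhead factor, was at 3.28 (SE 0.38, adjusted p = 3.20e-05), and Esrp2 was at 3.26 (SE 0.19, adjusted p = 2.80e-07). Klf4 was at -0.98 (SE 0.48, adjusted p = 0.0991). Of 6 tested repressors of epithelial genes, 1 was called higher, Snai3, with 386 reads in T1 and 1 in T2, again passing only through T1, and none was called lower. Zeb2, Twist1 and Snai1 had log2 fold changes of -1.41 (SE 0.12, adjusted p = 3.50e-06), -1.44 (SE 0.11, adjusted p = 1.51e-06) and -1.04 (SE 0.33, adjusted p = 0.0182), all inside the fold filter. Zeb1 was under the filter on low counts with 34 reads in T1 and 6 in T2, Snai2 had no read, and Tcf4 was at -0.21 (SE 0.10, adjusted p = 0.0886). Prkci, Ap1g2, Cd44, Cd9, Cldn7, Zeb2, Twist1, Snai1 and Zeb1 were named after their values were seen.

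**Figure D4:**
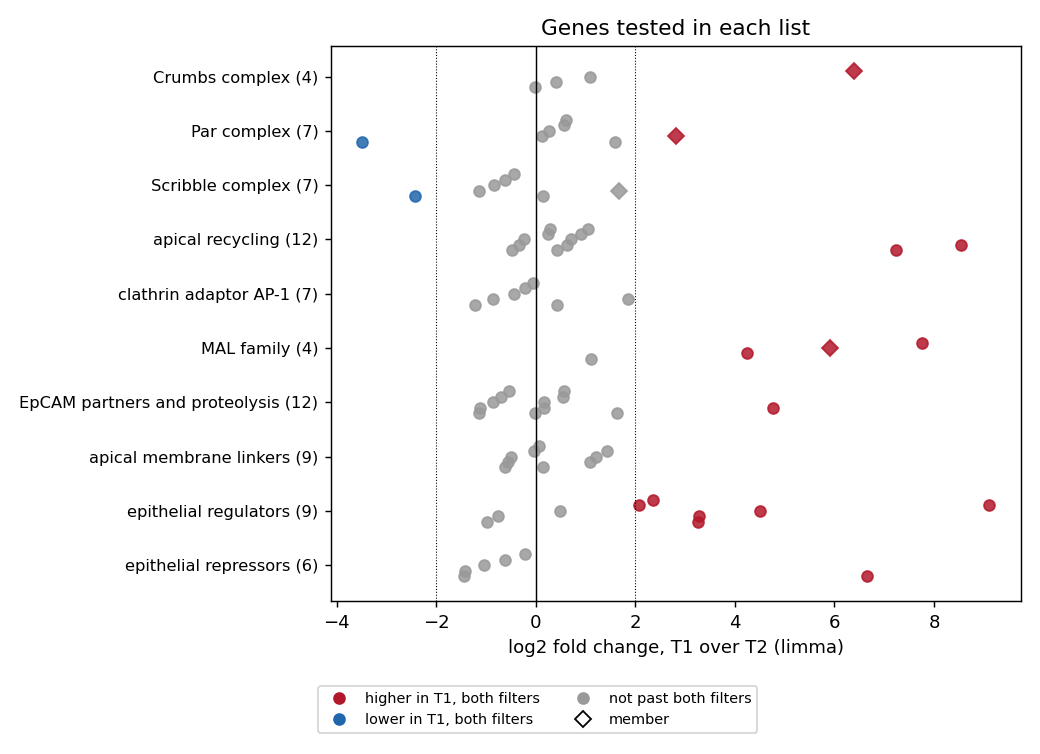
Log2 fold change of T1 over T2 by limma for each gene tested in the lists shown (the number tested is in brackets), with members as diamonds, genes called higher in T1 in red, genes called lower in blue and the rest in grey. The regulators hold 6 of 9 in red, and each other list shown holds 0 to 3 calls.

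On the chromosomes, 18 tested neighbours, the nearest on each side of each member, held 2 genes called higher and 1 called lower. Over all genes tested the shares were 4.17% and 4.2%. Trim46 lies 0.796 kb from Muc1 (log2 fold change 4.12, SE 0.48, adjusted p = 3.89e-05), and Samd12 lies 669 kb from Mal2 (2.52, SE 0.40, adjusted p = 0.000299). Kcnip3, 4.38 kb from Prom2, was lower in T1 (-2.72, SE 0.49, adjusted p = 0.000681), opposite to Prom2. On its other side, Prom2 shares a stretch of 203 kb (chr2:127526473-127729932) with Mal and Mall, chosen for description after the values were seen. The 5 genes of the table there are, in order, Prom2, Zfp661, Mrps5, Mal and Mall. Prom2, Mal and Mall were called higher, while Zfp661, which encodes a zinc finger protein, was at 67.5 and 54.3 normalized counts and Mrps5, a mitochondrial ribosomal protein gene, at 1659 and 1136, neither called.

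The gene with the profile most like each member over the 6 samples was found by the Euclidean distance between log2 values centred on each gene's mean, among 11508 genes. For Epcam it was Dok7 (distance 0.304), at 89.9, 80.9 and 84.9 normalized counts in T1 and 0 in T2, for Crb3 Stxbp6 (0.377) and for Mal2 Gpc4 (0.357). In T2 Gpc4 was also at 0 and Stxbp6 had 1, 0 and 1 reads. The matches to Dok7, Stxbp6 and Gpc4 therefore depend on the pseudocount. For Prom2 it was Stab1 (0.528), which was also highest of T2 in replicate 3, at 106.7 against 38.2 and 36.9. For Pard6b it was Nuak2 (0.262) and for Llgl2 1600002K03Rik (0.109). The choice by profile fixes a fold change near that of the member, so none is given.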

How the data were processed

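The study isolated RNA from 3 T1 and 3 T2 samples, made poly(A) libraries with a modified TruSeq V2 kit and sequenced paired ends on a HiSeqX. Per the labels and the paper's methods, the authors used TopHat2 for alignment to mm10, HTSeq for counting reads on genes and DESeq2 for normalization of these counts. Versions, annotation and strand setting are not given in the sources used here. The deposited signal is a read count divided by a size factor for each library. All values (100%) were whole multiples of 1 read within 0.02 of a read, so reads were recovered, and 18133227 to 20839686 reads on genes set the precision. No column was left unused.

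Groups came from the labels. Genes averaging 10 or more normalized counts were compared by limma 3.58.1 (R 4.3.3) with a variance trend on log2(normalized count + 1), with p-values adjusted by Benjamini-Hochberg over all 11514 genes. Counting intervals and floors cover counting error only, and reads carried no molecular identifiers. Alternatives were other pseudocounts, filters, quantile normalization, limma without the trend, edgeR 4.0.16 and DESeq2 1.42.0 on the recovered reads, a replicate block and each replicate left out. Of these steps, only the limma, edgeR and DESeq2 fits were tested on simulated data, with set fold changes smaller than those of Epcam and Crb3. The simulation did not cover the pair test, the floors, the shares or the nearest profiles. Named genes were the members, their relatives, the called genes of each list with the largest changes (at most 4), the highest gene not past adjusted p of 0.05, and the nearest profile. The members and lists were chosen with earlier results of these data known. All members were found in the table by symbol. Gene positions came from GENCODE M21 (GRCm38), and promoters from RefSeq. Samples of the parental line were not used here, and results of 1 related gene are not reported here.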

Additional observations from a re-analysis of the deposited data

How the results depend on the processing

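All 6 tested members kept their direction under all alternatives, and 5 were called higher except for 4 with a mean of at least 50 counts (Mal2 left the test), 6 with no filter (Rab25 joined) and 6 under both looser thresholds (Llgl2 joined). Member log2 fold changes ran from 6.31 to 6.51 for Epcam, 4.58 to 7.67 for Crb3, 1.58 to 1.77 for Llgl2, 3.68 to 8.94 for Mal2, 2.61 to 2.96 for Pard6b and 3.52 to 4.16 for Prom2. The extremes for Crb3 and Mal2, genes at or near 0 in T2, came from a pseudocount of 5 and from the count models. With a pseudocount of 5 the shift of Mal2 over Mall turned to -0.28 (exact permutation p = 0.7).

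Thresholds moved the counts. At an adjusted p of 0.05 and a log2 fold change of 1, 1135 genes were higher and 1310 lower, and 22 and 9 of the pathway genes. With the adjusted p alone the counts were 2888 and 2813, and 34 and 23. With a mean of at least 50 counts, 1 pathway gene was lower (2 otherwise). Among genes near 0, Adam17 turned to 0.011 under quantile normalization, and with a replicate left out Adam17 ran from -0.086 to 0.046, Ap1s3 from -0.14 to 0.057, Lin7c from -0.069 to 0.084 and Prkcz from -0.083 to 0.27. The cause was not tested.

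Same-numbered T1 and T2 samples correlated in their deviations by 0.0575, 0.172 and 0.104, and pairs of unlike number by -0.152 to 0.0719. Each T1 sample correlated best with the T2 sample of its own number. T2 replicate 1, however, correlated better with T1 replicate 3 (0.0719) than with its own number. The limit set here, 0.1 in every same-numbered pair, was not met, so the main fit left them unpaired. Whether the samples were paired was not settled. The fit with the replicate block called 481 genes higher and 486 lower, with 5 members higher. It moved the adjusted p of Klf4 to 0.00363, of Snai1 to 0.00219 and of Pard6a to 0.0112. At this depth Muc1 and Rab25, at 32 reads or fewer in each group, allow no fold change within narrow limits.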
